A study of Mus musculus with 14 samples.

Results

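The interferon response genes described here are 35 mouse genes taken by symbol from a list, out of 52459 gene symbols in the deposited matrices. The list was chosen with earlier results of these data known. By role they are 5 signalling factors, 4 genes of the IFIT family, 5 of the OAS family, 4 RNA sensors, 8 antiviral effectors, 1 chemokine, 4 genes of the PARP, TRIM and HERC families and 4 genes of antigen presentation. All 35 symbols were present, and 31 passed the filter on low counts. Oasl1, Oas2, Oas3 and Mx1 did not pass.

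The study asked how phosphorylation of BRG1 at serine 1382 bears on genes switched on by neuronal activity. BRG1 is the motor subunit of a chromatin remodeller. RNA of primary cortical neurons from E16.5 mouse embryos was sequenced in 14 libraries. The Brg1-SA knock-in carries alanine at that serine and the Brg1-SE knock-in carries glutamate. Tetrodotoxin (1 µM) and the NMDA receptor blocker APV (100 µM) were given to quiet the cultures on day 5, as the protocol states for all groups, wild type included. KCl (50 mM) followed on day 6 for 1 h, except in basal cultures. The SA line holds 2 Brg1-SA and 2 wild-type littermate libraries per treatment. The SE line holds 2 Brg1-SE libraries and 1 wild-type littermate library per treatment. A basal and a KCl library of one genotype, line and replicate number are called a culture, although the labels do not say that they share cells, animals or a litter. The p-values therefore measure only the spread between these libraries, which may be technical.

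Interferons are secreted proteins that bind receptors on the cell surface, and kinases at the receptor then phosphorylate STAT proteins, STAT2 among them. STAT2 and IRF9 are parts of a factor that binds the interferon-stimulated response element, a short DNA motif in the promoters of genes that sense viral RNA, block viral replication and present peptides. In brain cultures these genes can be expressed by neurons, astrocytes, microglia and cells of the meninges and vessels, and many keep a low level without infection.

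Libraries held 22625916 to 23096206 estimated counts. The neuronal markers Tubb3, Map2, Stmn2, Snap25, Syn1 and Rbfox3 were present in every library. Their summed level was 3389 to 5803 CPM (counts as a rate per library, corrected for composition), so neuronal RNA was present throughout. Markers of other cells were present too: 12 microglial markers summed to 77.6 to 260 CPM and 9 astrocyte markers to 716 to 2941 CPM. The 10 progenitor and cell cycle markers summed to 292 to 3623 CPM. In wild-type culture 1 they had 3428 CPM at basal and 3623 after KCl, against 3636 and 3389 for the neuronal markers. Fewer cells of a type and less RNA per cell cannot be told apart in such bulk samples. In the SA line, the Y-linked gene Ddx3y was at 30.03 to 56.9 CPM in wild-type culture 1 and SA culture 2 and at 0.125 CPM or less in the other 2 cultures, while the SE line held 11.0 to 21.4 CPM in every library.

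The response element was searched in promoter sequences from RefSeq (GRCm38.p6), over the 250 bases before each start site, as GAAANNGAAA or its reverse complement TTTCNNTTTC on either strand, with overlapping matches allowed. A promoter was listed for 27 members, in 30 entries. Parp9, Parp14, Usp18, Rtp4, Mx1, Mx2, Oas2 and Dhx58 were not matched. The motif stood in 11 of the 30 member entries (36.7%), those of B2m, Bst2, Cxcl10, Ifit1, Ifit3, Ifit3b, Isg15, Oas1a, Oas3, Rsad2 and Stat2, and in 2.98% of 32851 listed promoters of that length. The gamma-activated site TTCNNNGAA, which reads the same on both strands, stood in the entries of 6 members (Bst2, Eif2ak2, Ifit2, Irf1, Oas1a and Psmb8), and in 7.02% of all listed promoters.

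The promoters of 6 of the 11 members with a match are shown. Members without a match, Eif2ak2 and Ifit2 among them, are not shown. Isg15 (chr4:156200819-156201068, minus strand) held 3 overlapping matches. Bst2 (chr8:71537473-71537722, minus strand) held 2 overlapping matches. Ifit3 (chr19:34583279-34583528, plus strand) and Ifit3b (chr19:34607707-34607956, plus strand) share a near-identical stretch with 2 matches each. B2m (chr2:122147437-122147686, plus strand) held 1 match, 139 bases before its start. Stat2 (chr10:128270248-128270497, plus strand), the only member called higher in the SE line, also held 1 match. Each is printed 5′ to 3′ on the strand of its gene, with the matches in capitals.
Isg15: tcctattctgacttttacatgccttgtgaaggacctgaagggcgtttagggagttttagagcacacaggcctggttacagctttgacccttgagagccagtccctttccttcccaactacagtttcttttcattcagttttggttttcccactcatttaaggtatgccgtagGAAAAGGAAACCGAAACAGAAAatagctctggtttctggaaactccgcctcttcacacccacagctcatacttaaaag
Bst2: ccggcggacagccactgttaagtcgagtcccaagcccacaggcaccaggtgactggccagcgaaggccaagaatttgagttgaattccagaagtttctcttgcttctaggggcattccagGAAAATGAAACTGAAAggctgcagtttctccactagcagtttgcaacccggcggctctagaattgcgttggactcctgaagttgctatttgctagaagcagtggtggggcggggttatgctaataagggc
Ifit3: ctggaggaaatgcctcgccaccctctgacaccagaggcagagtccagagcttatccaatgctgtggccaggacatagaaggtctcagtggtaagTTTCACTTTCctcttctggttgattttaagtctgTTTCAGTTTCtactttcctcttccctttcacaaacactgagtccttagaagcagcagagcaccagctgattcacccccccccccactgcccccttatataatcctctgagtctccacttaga
Ifit3b: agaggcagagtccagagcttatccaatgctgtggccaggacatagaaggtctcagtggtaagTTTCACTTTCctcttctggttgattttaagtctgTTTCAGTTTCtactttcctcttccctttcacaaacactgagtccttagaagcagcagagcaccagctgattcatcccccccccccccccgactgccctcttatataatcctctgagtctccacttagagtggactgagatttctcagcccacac
B2m: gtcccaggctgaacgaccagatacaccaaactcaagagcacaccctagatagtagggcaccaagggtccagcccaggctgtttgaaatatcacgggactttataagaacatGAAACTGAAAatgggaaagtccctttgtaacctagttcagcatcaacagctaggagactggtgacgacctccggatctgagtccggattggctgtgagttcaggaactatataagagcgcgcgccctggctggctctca
Stat2: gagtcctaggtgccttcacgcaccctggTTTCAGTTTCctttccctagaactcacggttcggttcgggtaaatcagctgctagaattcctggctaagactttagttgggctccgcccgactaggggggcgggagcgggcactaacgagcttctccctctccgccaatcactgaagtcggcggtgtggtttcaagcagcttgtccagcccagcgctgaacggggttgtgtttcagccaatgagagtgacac
A match is a string of letters and not a measured binding site.

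Levels per transcript length, in TPM (transcript abundance scaled to a common total), put B2m far above the other members, with 108 to 401 TPM in the SA line and 55.0 to 65.3 TPM in the SE line. Stat2 and Bst2 followed with means over 14 libraries of 10.3 and 10.2 TPM. Their ranges overlapped in the SA line, where Stat2 spanned 7.21 to 12.1 TPM and Bst2 5.79 to 39.1 TPM. Next in order were Irf9, Ifit2, Tap1, Irf1, Eif2ak2, Cxcl10 and Psmb8, with means from 6.97 down to 4.04 TPM and overlapping ranges between neighbours. Oas2, Oas3, Mx1, Ifi44 and Oasl1 were lowest, with means of 0.0792 to 0.201 TPM.

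Most members were lower in the SE line than in the SA line, in wild-type and mutant cultures alike. At basal, 23 of the 35 members were called lower and 1, Stat2, was called higher by edgeR's quasi-likelihood test (called means a Benjamini-Hochberg adjusted p under 0.05 over 17732 genes). After KCl, 22 were called lower and Stat2 higher. The lines differed across the transcriptome: 45.8% of genes were called at basal and 48.1% after KCl. By direction, 25.2% of genes tested were called lower and 20.7% higher at basal, and 25.9% lower and 22.2% higher after KCl. The median log2 difference over all 35 members, without a filter, was -2.23 at basal and -2.35 after KCl, against a median of 0 over all genes fitted in the same way.

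The same pattern shows in single libraries. For 22 of the 35 members, all 8 SA-line libraries lay above all 6 SE-line libraries, as did 20.8% of genes tested. The reverse held for 1 member, Stat2, against 18.6% of genes tested. The mean level of a member in the SA line was 5.23 times that in the SE line at the median over 35 members, and 27 of them were above 2 times, as were 17.8% of genes.

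**Figure D1:**
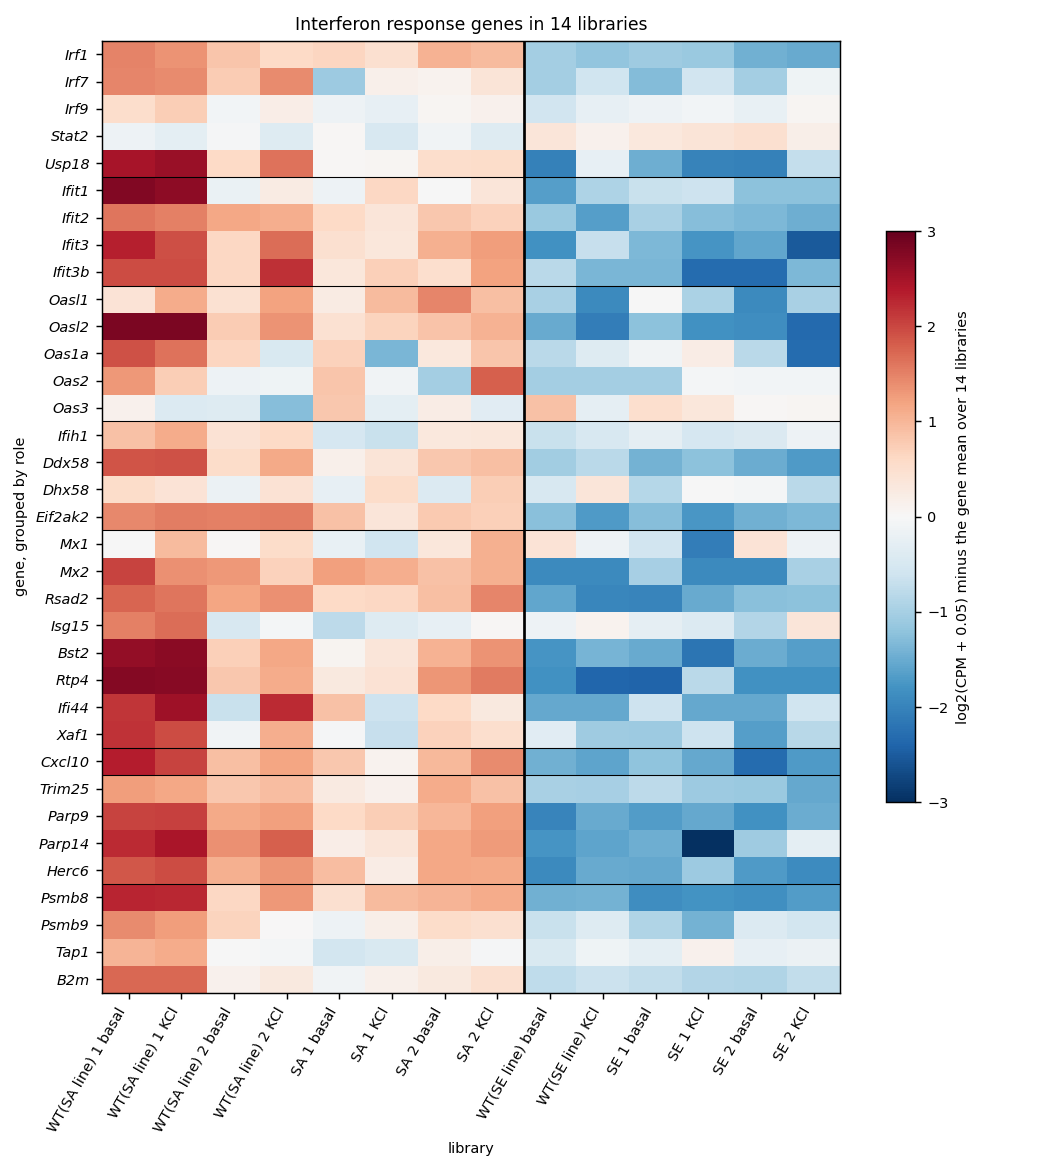
Level of 35 interferon response genes (rows, grouped by role with thin lines) in 14 libraries (columns), as log2(CPM + 0.05) minus the gene's mean over the libraries. The thick line parts the 8 SA-line libraries from the 6 SE-line libraries. Most rows are red in the SA line, deepest in the 2 libraries of wild-type culture 1, and blue in the SE line, while Stat2 runs the other way, as does the sparse Oas3.

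Pairs of values from here on are CPM at basal, then after KCl, and differences between lines are log2 of SE line minus SA line with the standard error of the model. Among the signalling factors, Irf1 encodes a transcription factor induced strongly by type II interferon. Irf1 stood at 11.1 and 10.02 CPM in wild-type culture 1, 7.01 and 5.96 in wild-type culture 2, 6.17 and 5.51 in SA culture 1 and 8.17 and 7.59 in SA culture 2. SE-line values were 1.92 and 1.696 CPM in the wild type, 1.85 and 1.804 in SE culture 1 and 1.41 and 1.35 in SE culture 2. For Irf1 the line difference was -2.19 ± 0.30 (adjusted p = 0.000338) at basal and -2.14 ± 0.30 (adjusted p = 0.00039) after KCl, and no SE-line library reached the lowest SA-line library. Irf7 encodes the factor that amplifies transcription of interferon genes. Irf7 stood at 1.51 and 1.47 CPM in wild-type culture 1, 0.913 and 1.46 in wild-type culture 2, 0.217 and 0.578 in SA culture 1 and 0.556 and 0.690 in SA culture 2. SE-line values were 0.228 and 0.321 CPM in the wild type, 0.180 and 0.332 in SE culture 1 and 0.228 and 0.464 in SE culture 2. For Irf7 the line difference was -1.65 ± 0.43 (adjusted p = 0.0112) at basal and -1.42 ± 0.39 (adjusted p = 0.0137) after KCl. Its groups overlapped, since SA culture 1 at basal lay within the range of the SE line. Protein-coding transcripts made up 85.7% of Irf7 counts in the SA line and 35.04% in the SE line, where libraries held only 4 to 10 counts. Such shares ran the other way for some members, as for Oasl2 (48.7% and 63.9%) and Mx2 (29.1% and 88.9%), also on few SE-line counts. Irf7 also shares 45 exonic bases with Phrf1 on the opposite strand, a gene at a mean of 65.9 CPM. Usp18 encodes a protease that removes ISG15 from proteins and restrains the type I receptor. Usp18 stood at 2.11 and 2.31 CPM in wild-type culture 1, 0.540 and 1.16 in wild-type culture 2, 0.348 and 0.356 in SA culture 1 and 0.513 and 0.517 in SA culture 2. SE-line values were 0.0457 and 0.275 CPM in the wild type, 0.0902 and 0.0475 in SE culture 1 and 0.0455 and 0.186 in SE culture 2. For Usp18 the line difference was -3.64 ± 0.82 (adjusted p = 0.00556) at basal and -2.24 ± 0.66 (adjusted p = 0.0189) after KCl, with no overlap between the lines. SE-line libraries held only 1 to 6 counts of Usp18.

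Stat2 and Irf9 encode partners that carry the type I signal to DNA. Stat2 stood at 19.2 and 17.4 CPM in wild-type culture 1, 20.8 and 16.3 in wild-type culture 2, 21.96 and 15.2 in SA culture 1 and 19.9 and 16.3 in SA culture 2. SE-line values were 27.4 and 23.5 CPM in the wild type, 26.7 and 27.96 in SE culture 1 and 29.7 and 23.99 in SE culture 2. For Stat2 the line difference was 0.44 ± 0.10 (adjusted p = 0.00522) at basal and 0.60 ± 0.10 (adjusted p = 0.00103) after KCl, and every SE-line library lay above every SA-line library. Its level varied little within the SA line, where wild-type culture 1 was not the highest at basal. Per length the lines overlapped, with 7.21 to 12.1 TPM in the SA line and 9.89 to 13.0 TPM in the SE line, and limma on log2(TPM + 0.5) gave 0.16 at basal (adjusted p = 0.292) and 0.31 after KCl (adjusted p = 0.0517), not called. Irf9 stood at 14.2 and 16.3 CPM in wild-type culture 1, 9.17 and 11.2 in wild-type culture 2, 8.83 and 8.27 in SA culture 1 and 10.3 and 10.7 in SA culture 2. SE-line values were 6.53 and 8.296 CPM in the wild type, 8.84 and 9.304 in SE culture 1 and 8.33 and 10.3 in SE culture 2. For Irf9 the line difference was -0.50 ± 0.20 (adjusted p = 0.0723) at basal and -0.34 ± 0.20 (adjusted p = 0.185) after KCl, neither called, and the lines overlapped. Irf9 shares 123 exonic bases with Rnf31 on the same strand, so some reads may be split between them.

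The IFIT genes encode proteins that bind viral RNA and block its translation, and 4 of them lie together on chromosome 19 between 34550694 and 34650009 (GRCm38). Ifit2 stood at 26.03 and 24.4 CPM in wild-type culture 1, 19.2 and 18.1 in wild-type culture 2, 12.96 and 10.9 in SA culture 1 and 14.9 and 13.8 in SA culture 2. SE-line values were 3.88 and 2.66 CPM in the wild type, 4.33 and 3.51 in SE culture 1 and 3.32 and 3.06 in SE culture 2. For Ifit2 the line difference was -2.20 ± 0.20 (adjusted p = 3.9e-05) at basal and -2.45 ± 0.21 (adjusted p = 2.73e-05) after KCl, the clearest separation of the family. Ifit3 stood at 4.06 and 3.06 CPM in wild-type culture 1, 1.204 and 2.57 in wild-type culture 2, 1.09 and 0.978 in SA culture 1 and 1.67 and 1.897 in SA culture 2. SE-line values were 0.183 and 0.458 CPM in the wild type, 0.271 and 0.190 in SE culture 1 and 0.228 and 0.0928 in SE culture 2. For Ifit3 the line difference was -3.13 ± 0.57 (adjusted p = 0.00183) at basal and -2.95 ± 0.55 (adjusted p = 0.002) after KCl, with no overlap. Its near copy Ifit3b is 98.0% identical over 1697 aligned bases, so counts of the pair may be split between them. Ifit3b stood at 0.915 and 0.914 CPM in wild-type culture 1, 0.332 and 1.07 in wild-type culture 2, 0.261 and 0.356 in SA culture 1 and 0.299 and 0.517 in SA culture 2. SE-line values were 0.0913 and 0.0458 CPM in the wild type, 0.0451 and 0 in SE culture 1 and 0 and 0.0464 in SE culture 2. The SE line held 3 counts of Ifit3b at basal against 44 in the SA line, a ratio of SA line to SE line of 10.1 (exact 95% counting interval 3.25 to 51.0). After KCl the line totals were 68 and 2 counts, a ratio of 23.3 (6.20 to 196). Ifit3b was called lower in the SE line in both conditions (adjusted p = 0.00744 and 0.00158). Ifit1 stood at 2.98 and 2.78 CPM in wild-type culture 1, 0.332 and 0.472 in wild-type culture 2, 0.348 and 0.622 in SA culture 1 and 0.385 and 0.517 in SA culture 2. SE-line values were 0.0913 and 0.183 CPM in the wild type, 0.226 and 0.237 in SE culture 1 and 0.137 and 0.139 in SE culture 2. For Ifit1 the line difference was -2.55 ± 1.06 (adjusted p = 0.0752) at basal and -2.35 ± 0.96 (adjusted p = 0.0686) after KCl, neither called, although the lines did not overlap. Its wild-type culture 1 lay far above the other SA-line cultures.

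The OAS family includes enzymes that make the messenger that activates the RNA-degrading enzyme RNase L. Oasl2 stood at 8.28 and 8.35 CPM in wild-type culture 1, 1.95 and 2.96 in wild-type culture 2, 1.57 and 1.82 in SA culture 1 and 2.096 and 2.37 in SA culture 2. SE-line values were 0.365 and 0.229 CPM in the wild type, 0.451 and 0.285 in SE culture 1 and 0.273 and 0.186 in SE culture 2. For Oasl2 the line difference was -3.05 ± 0.66 (adjusted p = 0.00445) at basal and -3.86 ± 0.71 (adjusted p = 0.00185) after KCl, with no overlap between the lines. Oas1a stood at 0.876 and 0.716 CPM in wild-type culture 1, 0.332 and 0.129 in wild-type culture 2, 0.348 and 0.0445 in SA culture 1 and 0.257 and 0.388 in SA culture 2. SE-line values were 0.0913 and 0.138 CPM in the wild type, 0.180 and 0.237 in SE culture 1 and 0.0911 and 0 in SE culture 2. For Oas1a the line difference was -1.89 ± 1.01 (adjusted p = 0.156) at basal and -1.23 ± 1.02 (adjusted p = 0.345) after KCl, neither called, with overlapping lines. The other 3 were near the limit of detection: Oas2 had 0 to 7 counts per library, Oas3 1 to 8.3 and Oasl1 0 to 11. Oas3 had a lower mean in the SA line than in the SE line, at 0.713 times. Oasl1 was higher in all 8 SA-line libraries than in any SE-line library.

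The RNA sensors split by line in 2 of 4 genes. Eif2ak2 encodes PKR, the kinase that stops translation when it meets double-stranded RNA. Eif2ak2 stood at 17.9 and 19.1 CPM in wild-type culture 1, 18.7 and 19.05 in wild-type culture 2, 11.96 and 8.36 in SA culture 1 and 11.3 and 10.8 in SA culture 2. SE-line values were 2.69 and 1.97 CPM in the wild type, 2.66 and 1.899 in SE culture 1 and 2.37 and 2.55 in SE culture 2. For Eif2ak2 the line difference was -2.48 ± 0.16 (adjusted p = 8.23e-06) at basal and -2.69 ± 0.17 (adjusted p = 5.66e-06) after KCl, with the lowest p of the 31 members tested in each condition. Unlike most members its level was nearly equal in wild-type cultures 1 and 2. Ddx58 encodes RIG-I, a cytoplasmic sensor of viral RNA. Ddx58 stood at 16.04 and 16.3 CPM in wild-type culture 1, 6.31 and 9.52 in wild-type culture 2, 4.78 and 5.69 in SA culture 1 and 7.66 and 8.11 in SA culture 2. SE-line values were 2.06 and 2.43 CPM in the wild type, 1.58 and 1.804 in SE culture 1 and 1.502 and 1.299 in SE culture 2. For Ddx58 the line difference was -2.23 ± 0.40 (adjusted p = 0.00163) at basal and -2.28 ± 0.40 (adjusted p = 0.00137) after KCl, with no overlap. Protein-coding transcripts made up 77.8% of Ddx58 counts in the SA line and 52.3% in the SE line. Ifih1, which encodes the sensor MDA5, spanned 1.87 to 6.48 CPM in the SA line and 1.87 to 2.69 in the SE line, with a line difference of -0.83 ± 0.32 (adjusted p = 0.0591) at basal. Dhx58, which encodes LGP2, spanned 0.385 to 0.905 and 0.271 to 0.688 CPM, with -0.43 ± 0.38 (adjusted p = 0.388). Neither was called, and both overlapped between lines.

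Of the 8 antiviral effectors, 6 were called lower in the SE line at basal and 5 after KCl. Bst2 encodes tetherin, which holds budding virus at the cell surface. Bst2 stood at 13.6 and 14.2 CPM in wild-type culture 1, 3.57 and 4.85 in wild-type culture 2, 2.26 and 2.76 in SA culture 1 and 4.45 and 5.56 in SA culture 2. SE-line values were 0.594 and 0.779 CPM in the wild type, 0.722 and 0.427 in SE culture 1 and 0.728 and 0.650 in SE culture 2. For Bst2 the line difference was -3.02 ± 0.67 (adjusted p = 0.00504) at basal and -3.27 ± 0.67 (adjusted p = 0.00328) after KCl, with no overlap. Rsad2 encodes viperin, which makes a chain-terminating nucleotide. Rsad2 stood at 1.79 and 1.63 CPM in wild-type culture 1, 1.204 and 1.37 in wild-type culture 2, 0.783 and 0.800 in SA culture 1 and 0.984 and 1.47 in SA culture 2. SE-line values were 0.137 and 0.0917 CPM in the wild type, 0.0902 and 0.142 in SE culture 1 and 0.182 and 0.186 in SE culture 2. For Rsad2 the line difference was -3.03 ± 0.42 (adjusted p = 0.000395) at basal and -3.35 ± 0.44 (adjusted p = 0.000255) after KCl, with no overlap. Rtp4, a receptor transporter protein induced by type I interferon, stood at 3.303 and 3.26 CPM in wild-type culture 1, 0.830 and 1.03 in wild-type culture 2, 0.565 and 0.622 in SA culture 1 and 1.198 and 1.42 in SA culture 2. SE-line values were 0.0913 and 0.0458 CPM in the wild type, 0.0451 and 0.237 in SE culture 1 and 0.0911 and 0.0928 in SE culture 2. For Rtp4 the line difference was -4.01 ± 0.91 (adjusted p = 0.00576) at basal and -4.00 ± 0.93 (adjusted p = 0.00607) after KCl, with no overlap. SE-line libraries held only 1 to 5 counts of Rtp4.

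Xaf1, a gene linked to cell death, stood at 2.59 and 2.23 CPM in wild-type culture 1, 0.498 and 1.201 in wild-type culture 2, 0.522 and 0.311 in SA culture 1 and 0.898 and 0.776 in SA culture 2. SE-line values were 0.411 and 0.229 CPM in the wild type, 0.226 and 0.332 in SE culture 1 and 0.137 and 0.278 in SE culture 2. For Xaf1 the line difference was -1.92 ± 0.67 (adjusted p = 0.0405) at basal and -1.85 ± 0.69 (adjusted p = 0.0507) after KCl, called at basal only, and the lines overlapped. That basal call was lost in 13 of 24 alternatives. Mx2 encodes a dynamin-like GTPase and is annotated as a polymorphic pseudogene in GENCODE M21. Mx2 stood at 0.716 and 0.437 CPM in wild-type culture 1, 0.415 and 0.257 in wild-type culture 2, 0.391 and 0.356 in SA culture 1 and 0.299 and 0.345 in SA culture 2. SE-line values were 0 and 0 CPM in the wild type, 0.0451 and 0 in SE culture 1 and 0 and 0.0464 in SE culture 2. The SE line held 1 count at basal against 44 in the SA line, a ratio of 30.4 (5.18 to 1227), and 1 against 33 after KCl, a ratio of 22.6 (3.78 to 919). Ifi44 stood at 0.597 and 0.795 CPM in wild-type culture 1, 0.0415 and 0.644 in wild-type culture 2, 0.217 and 0.0445 in SA culture 1 and 0.171 and 0.129 in SA culture 2. SE-line values were 0 and 0 CPM in the wild type, 0.0451 and 0 in SE culture 1 and 0 and 0.0464 in SE culture 2. Its line totals were 25 counts in the SA line and 1 in the SE line at basal (ratio 17.3, 2.83 to 709), and 39 and 1 after KCl (ratio 26.7, 4.52 to 1081). Ifi44 overlapped between the lines and Mx2 did not. Both were called lower in both conditions, Mx2 with adjusted p = 0.00138 and 0.00247 and Ifi44 with adjusted p = 0.0328 and 0.04, and these intervals cover counting error only. The calls of Ifi44 were lost in 10 of 23 alternatives at basal and 11 of 23 after KCl. Mx1, the other dynamin-like member, had 0 to 9.2 counts per library.

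Isg15, the ubiquitin-like protein attached to other proteins during the response, was not called between the lines. Isg15 stood at 2.15 and 2.39 CPM in wild-type culture 1, 0.498 and 0.686 in wild-type culture 2, 0.391 and 0.534 in SA culture 1 and 0.599 and 0.733 in SA culture 2. SE-line values were 0.639 and 0.779 CPM in the wild type, 0.586 and 0.522 in SE culture 1 and 0.364 and 0.928 in SE culture 2. For Isg15 the line difference was -0.55 ± 0.63 (adjusted p = 0.507) at basal and -0.39 ± 0.60 (adjusted p = 0.617) after KCl, neither called. Apart from wild-type culture 1, its SA-line libraries lay within the range of the SE line.

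Cxcl10 encodes a chemokine that draws T cells. Cxcl10 stood at 7.004 and 5.53 CPM in wild-type culture 1, 2.53 and 3.09 in wild-type culture 2, 2.35 and 1.42 in SA culture 1 and 2.65 and 3.62 in SA culture 2. SE-line values were 0.457 and 0.413 CPM in the wild type, 0.541 and 0.427 in SE culture 1 and 0.228 and 0.371 in SE culture 2. For Cxcl10 the line difference was -3.03 ± 0.56 (adjusted p = 0.00195) at basal and -3.01 ± 0.57 (adjusted p = 0.00207) after KCl, with no overlap.

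All 4 genes of the PARP, TRIM and HERC families were called lower in the SE line in both conditions. Parp9 and its partner Dtx3l act in ADP-ribosylation. Parp9 stood at 11.1 and 11.3 CPM in wild-type culture 1, 5.98 and 6.39 in wild-type culture 2, 4.09 and 4.54 in SA culture 1 and 5.39 and 6.34 in SA culture 2. SE-line values were 0.639 and 0.917 CPM in the wild type, 0.812 and 0.902 in SE culture 1 and 0.728 and 0.928 in SE culture 2. For Parp9 the line difference was -3.17 ± 0.36 (adjusted p = 0.000115) at basal and -2.91 ± 0.34 (adjusted p = 0.000154) after KCl. Parp9 and Dtx3l overlap by 458 exonic bases on opposite strands, and counting by strand is not stated in the sources used here. Parp14 encodes another ADP-ribosyltransferase. Parp14 stood at 5.89 and 6.799 CPM in wild-type culture 1, 3.196 and 4.33 in wild-type culture 2, 1.39 and 1.56 in SA culture 1 and 2.74 and 3.02 in SA culture 2. SE-line values were 0.320 and 0.367 CPM in the wild type, 0.406 and 0 in SE culture 1 and 0.546 and 0.975 in SE culture 2. For Parp14 the line difference was -2.96 ± 0.76 (adjusted p = 0.0107) at basal and -3.06 ± 0.75 (adjusted p = 0.00819) after KCl. Herc6, the main ligase for ISG15 in mice, stood at 8.12 and 8.67 CPM in wild-type culture 1, 4.65 and 5.53 in wild-type culture 2, 4.17 and 2.58 in SA culture 1 and 4.92 and 4.92 in SA culture 2. SE-line values were 0.548 and 0.733 CPM in the wild type, 0.722 and 0.997 in SE culture 1 and 0.637 and 0.557 in SE culture 2. For Herc6 the line difference was -3.13 ± 0.39 (adjusted p = 0.000218) at basal and -2.77 ± 0.38 (adjusted p = 0.000358) after KCl. Trim25, a ligase that acts on the RIG-I pathway, stood at 10.5 and 9.900 CPM in wild-type culture 1, 7.72 and 8.49 in wild-type culture 2, 5.304 and 4.802 in SA culture 1 and 9.62 and 8.19 in SA culture 2. SE-line values were 2.24 and 2.200 CPM in the wild type, 2.53 and 2.04 in SE culture 1 and 2.003 and 1.49 in SE culture 2. For Trim25 the line difference was -1.87 ± 0.30 (adjusted p = 0.000879) at basal and -1.97 ± 0.31 (adjusted p = 0.000706) after KCl. None of these 4 genes overlapped between the lines.

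Antigen presentation followed in 3 of 4 genes. B2m encodes the invariant light chain of MHC class I. B2m stood at 128 and 127 CPM in wild-type culture 1, 42.7 and 47.8 in wild-type culture 2, 36.00 and 43.00 in SA culture 1 and 47.4 and 53.9 in SA culture 2. SE-line values were 22.7 and 24.6 CPM in the wild type, 23.4 and 20.9 in SE culture 1 and 20.8 and 23.3 in SE culture 2. For B2m the line difference was -1.41 ± 0.42 (adjusted p = 0.0216) at basal and -1.48 ± 0.43 (adjusted p = 0.017) after KCl, with no overlap. Its calls were lost in 6 of 25 alternatives at basal and 5 of 25 after KCl. Psmb8 and Psmb9 encode catalytic subunits of the immunoproteasome. Psmb8 stood at 7.203 and 7.04 CPM in wild-type culture 1, 2.24 and 3.604 in wild-type culture 2, 2.04 and 2.85 in SA culture 1 and 2.95 and 3.19 in SA culture 2. SE-line values were 0.502 and 0.504 CPM in the wild type, 0.361 and 0.380 in SE culture 1 and 0.364 and 0.418 in SE culture 2. For Psmb8 the line difference was -2.99 ± 0.50 (adjusted p = 0.00112) at basal and -3.15 ± 0.50 (adjusted p = 0.000831) after KCl, with no overlap. Psmb9 stood at 2.71 and 2.39 CPM in wild-type culture 1, 1.58 and 0.987 in wild-type culture 2, 0.870 and 1.11 in SA culture 1 and 1.45 and 1.38 in SA culture 2. SE-line values were 0.594 and 0.733 CPM in the wild type, 0.496 and 0.332 in SE culture 1 and 0.728 and 0.650 in SE culture 2. For Psmb9 the line difference was -1.38 ± 0.44 (adjusted p = 0.0268) at basal and -1.27 ± 0.43 (adjusted p = 0.0364) after KCl, with no overlap. Its calls were lost in 7 of 25 alternatives at basal and 12 of 25 after KCl. Tap1 encodes a subunit of the transporter that loads peptides. Tap1 stood at 19.8 and 20.8 CPM in wild-type culture 1, 9.59 and 9.31 in wild-type culture 2, 6.57 and 6.98 in SA culture 1 and 10.9 and 9.44 in SA culture 2. SE-line values were 7.08 and 8.89 CPM in the wild type, 7.85 and 10.6 in SE culture 1 and 8.104 and 8.59 in SE culture 2. For Tap1 the line difference was -0.59 ± 0.35 (adjusted p = 0.195) at basal and -0.27 ± 0.34 (adjusted p = 0.545) after KCl, neither called, and outside wild-type culture 1 the lines overlapped. Psmb9 and Tap1 are neighbours on opposite strands and share 212 exonic bases, so their reads may not have been separated.

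**Figure D2:**
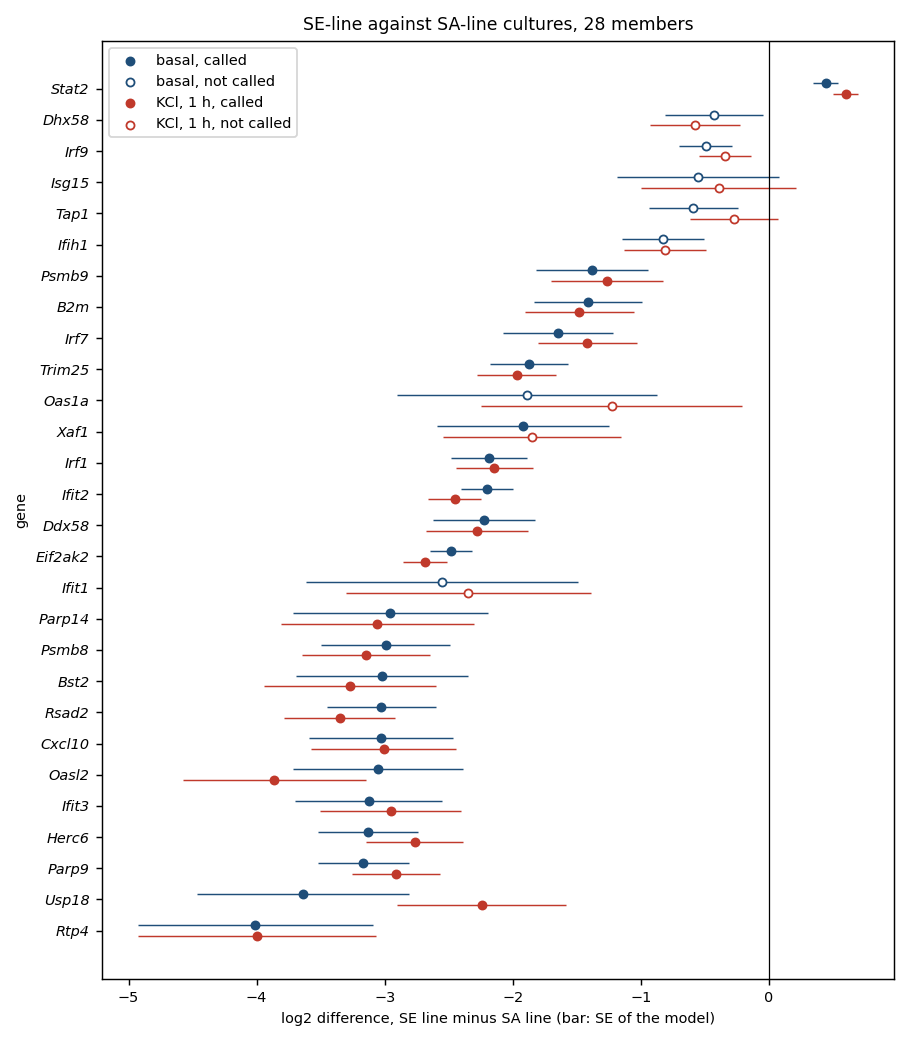
Log2 difference of SE line minus SA line (x axis) for 28 members tested (y axis), at basal in blue and after 1 h of KCl in red, with bars for the standard error of the model. Filled points were called. Mx2, Ifi44 and Ifit3b are not drawn because the SE line held 3 counts or fewer. Stat2 lies right of 0 and the other members lie left of it, down to -4.01 for Rtp4 at basal. Rtp4 had 1 to 5 counts per SE-line library.

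The lines were also contrasted by their wild-type groups alone, 4 libraries of the SA line and 2 of the SE line. The spread still came from the fit of all 14 libraries. These contrasts gave 18 members called at basal and 20 after KCl, where each SE-line group is a single library assumed to vary like the others. The same contrasts called 28.6% and 31.0% of genes. In them Eif2ak2 differed by -2.76 ± 0.26 and Ifit2 by -2.54 ± 0.32 at basal. Litter, culture day and line cannot be told apart in this design.

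The upstream and downstream genes of the pathway were counted in the same comparison. Over all genes tested, 25.2% were called lower and 20.7% higher at basal, and 25.9% and 22.2% after KCl. The ligands were at or near nothing: 17 of 21 interferon genes were at 0 in all 14 libraries, and no library held more than 3 counts over all of them, the same as the limit that a count of 0 allows. Of 10 receptor and relay genes tested, 6 were called lower in the SE line and none higher. Among them were the transcription factor Stat3 (-1.58 ± 0.13 at basal), the receptor chains Il10rb (-1.75 ± 0.23) and Ifngr1 (-1.05 ± 0.20), and the kinase Tyk2 (-0.54 ± 0.13). Of 16 genes of nucleic acid sensing, 8 were called lower at basal, led by the endosomal RNA receptor Tlr3 (-2.04 ± 0.21) and the mitochondrial adaptor Mavs (-1.79 ± 0.25). The adaptor Traf3 (0.31 ± 0.08) and the kinase Tbk1 (0.32 ± 0.09) were called higher. After KCl the counts were 10 lower and 2 higher.

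Of 13 brakes on interferon signalling, 5 were called lower and 3 higher at basal, and 3 and 3 after KCl. The shares over all genes tested were 25.2% lower and 20.7% higher at basal, and 25.9% and 22.2% after KCl. Nlrx1, a mitochondrial NLR protein, was lower (-1.73 ± 0.21), while the RNA-editing enzyme Adar (0.53 ± 0.08) was higher. Among 45 other interferon-stimulated genes tested, 24 were called lower and 1, Ly6e (1.07 ± 0.15), higher in each condition. The guanylate-binding proteins Gbp7 (-3.35 ± 0.22) and Gbp3 (-2.32 ± 0.25) and the GTPase Irgm1 (-2.14 ± 0.22) were among the lower genes. Of 17 genes of MHC class I and peptide loading, 11 were called lower at basal and 12 after KCl, and none higher. Tap2, the partner of Tap1, differed by -2.94 ± 0.27 and Erap1, a peptide-trimming enzyme, by -2.25 ± 0.21.

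Most markers of other cells differed between the lines in the same direction. Called lower in the SE line at basal were 9 of 12 markers of microglia and macrophages and 11 of 12 of meningeal fibroblasts. So were 5 of 7 tested of endothelial and mural cells, 8 of 9 of astrocytes and 7 of 8 of the oligodendrocyte lineage. The counts were 9 of 10 for progenitors and cell cycle and 7 of 8 for GABAergic neurons, beside 25.2% of genes tested. The progenitor marker Eomes was called higher (3.13 ± 0.25). Pdgfra counts in both the fibroblast and the oligodendrocyte list. Summed over the whole list, microglial markers were at 192 to 260 CPM in SA-line libraries and 77.6 to 100.2 in SE-line libraries. Meningeal fibroblast markers were at 361 to 732 CPM and 60.1 to 109 CPM, and astrocyte markers at 1811 to 2941 CPM and 716 to 791 CPM. No marker of these lists was at 0 in all 14 libraries. Glutamatergic markers ran the other way, with 4 of 8 called higher, beside 20.7% of genes tested. Their sums were 722 to 1645 CPM in the SA line and 2716 to 2944 CPM in the SE line. The part of cell makeup in the members' line difference was not tested.

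**Figure D3:**
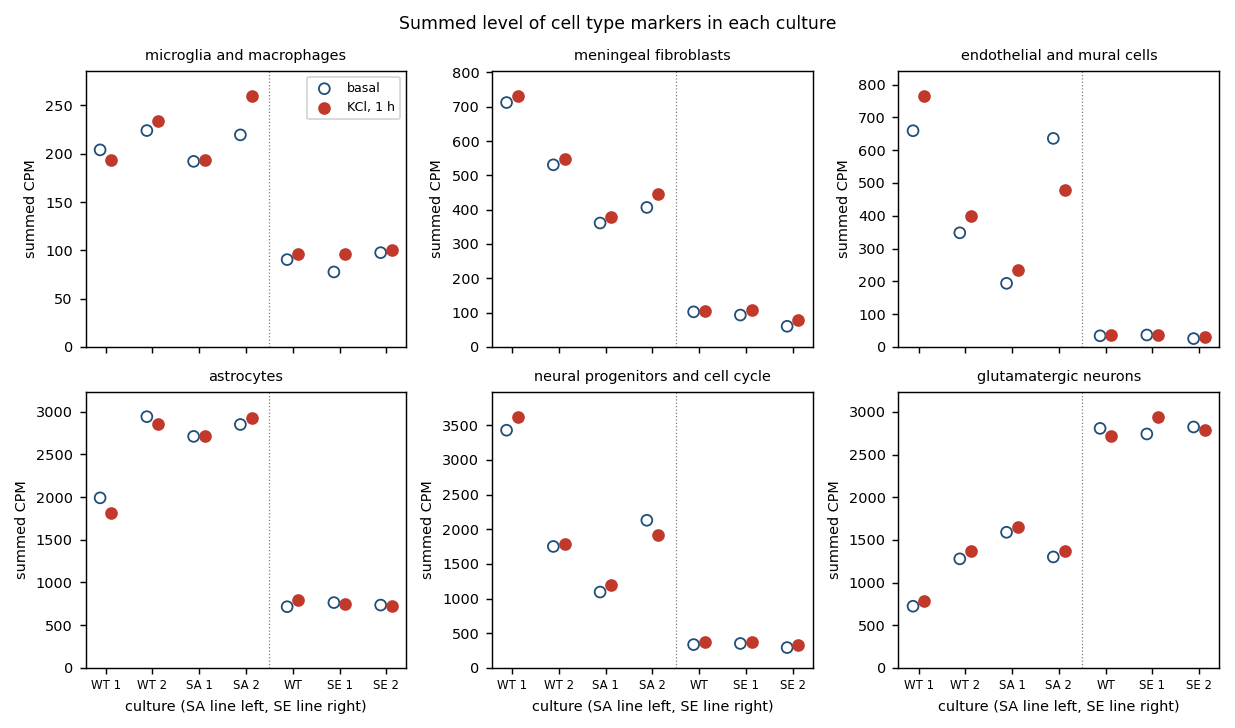
Summed CPM of 6 lists of cell type markers (panels, y axes from 0) in 7 cultures (x axis), at basal as open circles and after 1 h of KCl as filled circles. The dotted line parts the SA line (left) from the SE line (right). The SE line is lower in every panel but that of glutamatergic neurons, where it is higher, and wild-type culture 1 is highest for meningeal fibroblasts and for progenitors.

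Within the SA line the members followed the culture. Both libraries of wild-type culture 1 lay above the other 6 SA-line libraries for 26 of 35 members, a pattern found in 20.1% of genes tested. Both libraries of SA culture 1 lay below the other 6 for 17 of 35 members, against 12.6% of genes. At basal, wild-type culture 1 was the highest of 4 libraries for 30 members, as for 34.5% of genes tested. SA culture 1 was the lowest for 25 members, as for 25.1% of genes. After KCl these counts were 29 and 28, beside 34.1% and 27.4% of genes.

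The mean level of wild-type culture 1 was 2.05 times the mean of the other 3 cultures at the median over 35 members, and 19 members were above 2 times, as were 3.28% of genes. SA culture 2 was 1.46 times SA culture 1 at the median, which is a difference between cultures of one genotype. Wild-type culture 2 was 1.12 times the mean of both SA cultures. Ranked by culture mean, 14 members had the order wild-type 1, wild-type 2, SA 2, SA 1, and 12 had wild-type 1, SA 2, wild-type 2, SA 1.

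The sums of some marker lists shared these orders and others did not. Meningeal fibroblast markers summed to 712 and 732 CPM in wild-type culture 1, 531 and 547 in wild-type culture 2, 361 and 380 in SA culture 1, and 407 and 445 in SA culture 2. Progenitor and cell cycle markers summed to 3428 and 3623 CPM in wild-type culture 1, 1751 and 1785 in wild-type culture 2, 1093 and 1195 in SA culture 1, and 2128 and 1918 in SA culture 2. Endothelial and mural markers summed to 659 and 766, 348 and 398, 194 and 234, and 636 and 479 CPM in the same cultures. Acta2 made up most of that sum, with basal means of 448 CPM in wild type and 380 in SA. The endothelial marker Pecam1 had 0.506 and 0.582 CPM. Vim was the largest part of the progenitor sum, with 1546 and 920 CPM. By culture, the progenitor sum and the endothelial and mural sum ran in the order wild-type 1, SA 2, wild-type 2, SA 1. The fibroblast sum ran in the order wild-type 1, wild-type 2, SA 2, SA 1, as the members did most often. Microglial markers did not set wild-type culture 1 apart, with 204 and 194 CPM there and 192 to 260 CPM in the other 6 libraries. Glutamatergic markers were lowest in wild-type culture 1, with 722 and 786 CPM. The part of these cells, or of the sex of the embryos, in the order of the members was not tested.

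**Figure D4:**
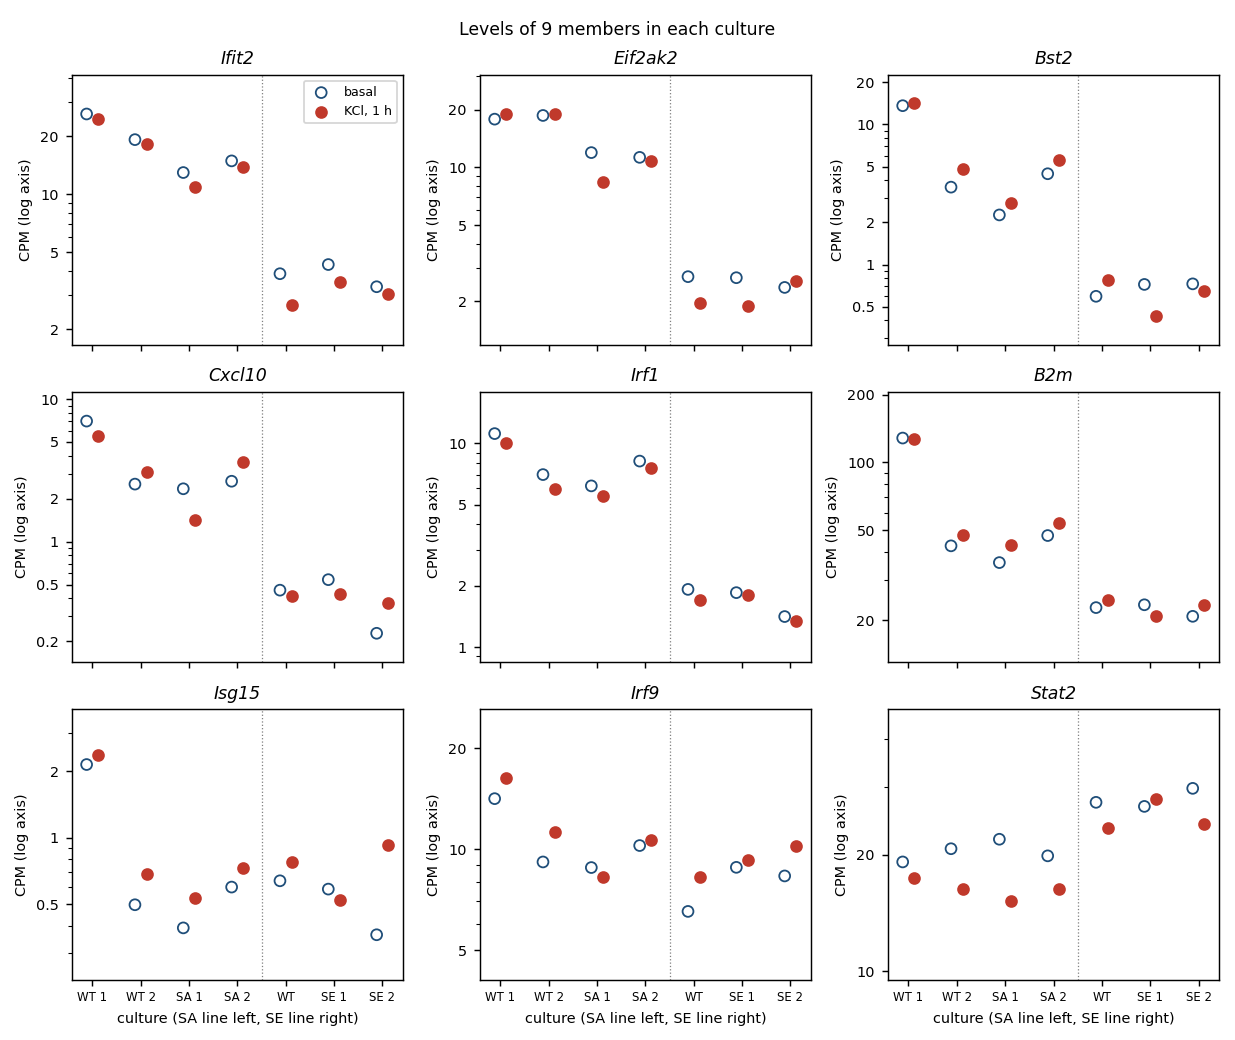
CPM (log axes) of 9 members in 7 cultures (x axis), at basal as open circles and after 1 h of KCl as filled circles. The dotted line parts the SA line (left) from the SE line (right). Bst2, B2m and Isg15 stand highest in wild-type culture 1, Eif2ak2 is level in both wild-type cultures and lower in both SA cultures, and Stat2 is higher in the SE line.

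The comparison of Brg1-SA with its littermate wild type asks whether loss of the serine is accompanied by a change in these genes. No member was called at basal or after KCl, and none of 17732 genes was (0.0% called). By unadjusted p under 0.05, edgeR's test picked 6 members and 1279 genes at basal, and 8 members and 2040 genes after KCl. DESeq2 called 0 members and 0 genes at basal, and 1 member, Eif2ak2, and 64 genes (0.361%) after KCl. Over all 35 members without a filter, the median log2 difference of SA minus wild type was -0.84 at basal and -0.87 after KCl, with 31 of 35 members lower each time and a median of 0 over all genes. Some marker lists were lower in SA too. The median was -0.98 at basal and -0.84 after KCl for meningeal fibroblasts and -0.48 and -0.48 for progenitors and cell cycle. For endothelial and mural cells it was -0.24 and -0.70. Other lists were not lower: the median was -0.04 and 0.10 for microglia and 0.35 and 0.11 for astrocytes. It was 0.41 and 0.42 for pan-neuronal markers and 0.17 and 0.17 for glutamatergic neurons. For GABAergic neurons it was 0.08 and 0.09, and for the oligodendrocyte lineage -0.004 and 0.03. No marker was called, and the part of these cells in the members' difference was not tested.

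The medians rested largely on wild-type culture 1. Over the 31 members tested they were -0.88 at basal and -0.92 after KCl. Without the basal library of wild-type culture 1 the basal median was -0.07, and without its KCl library the KCl median was -0.28. Without the basal library of wild-type culture 2 the basal median was -1.49. With both libraries of wild-type culture 2 left out, so that culture 1 stood alone for wild type and was assumed to vary like the other groups, 14 members were called at basal and 15 after KCl, all of them lower in SA, beside 11.4% and 13.5% of genes called in either direction and 3.4% and 4.71% called lower. With culture 1 left out, and culture 2 alone under the same assumption, no member was called (0.0% of genes). Neither fit has a spread of its own for wild type.

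Both SA libraries lay below both wild-type libraries for 12 of 35 members at basal (14.7% of genes tested) and for 19 after KCl (19.1% of genes). All 4 SA libraries lay below all 4 wild-type libraries for 6 members, Irf7, Usp18, Ifit2, Ifih1, Eif2ak2 and Parp14, beside 5.71% of genes. Eif2ak2 had the lowest p of the members, with a difference of -0.65 ± 0.18 (adjusted p = 0.621) at basal and -0.99 ± 0.18 (adjusted p = 0.299) after KCl by edgeR. By DESeq2, Eif2ak2 was called after KCl but not at basal. Its 4 wild-type values lay between 17.9 and 19.1 CPM and its 4 SA values between 8.36 and 11.96 CPM, so that its gap did not rest on culture 1. Ifit2 differed by -0.70 ± 0.22 (adjusted p = 0.621) and -0.78 ± 0.22 (adjusted p = 0.335), and Irf7 by -1.63 ± 0.46 (adjusted p = 0.621) and -1.20 ± 0.43 (adjusted p = 0.386). No member's response to KCl was called different between SA and wild type (0.0% of genes called, 0 members at unadjusted p under 0.05).

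Of the pathway lists, none held a gene called between SA and wild type. The other interferon-stimulated genes had a median log2 difference of -0.51 at basal and -0.45 after KCl over 45 tested, and MHC class I and peptide loading of -0.26 and -0.24 over 17.

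No member was called between Brg1-SE and its littermate wild type at basal or after KCl (0.0% of genes called), with 1 wild-type library per treatment. By unadjusted p under 0.05 edgeR's count of members was 0, against 187 genes at basal and 240 after KCl, and DESeq2 called 0 members with 0 and 1 genes. The median log2 difference over 35 members was 0.05 at basal and 0.03 after KCl, SE minus wild type. Ifit2, for example, was at 3.88 and 2.66 CPM in the wild type, 4.33 and 3.51 in SE culture 1 and 3.32 and 3.06 in SE culture 2, so the wild type lay between the mutant values at basal and below them after KCl. Irf9 had the lowest p at basal, with 0.39 ± 0.32 (adjusted p = 1), and Ifit3 after KCl, with -1.66 ± 1.00 (adjusted p = 1). The interaction of SE with KCl gave no called member (0.0% of genes).

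Depolarisation for 1 h did not move the members past the threshold. KCl against basal over all 14 libraries called 4.55% of genes and 0 members, with 1 member, Stat2, at unadjusted p under 0.05. By genotype, KCl called 1.41% of genes in wild type, 0.846% in SA and 1.66% in SE, and 0 members in each, with 1, 2 and 0 members at unadjusted p under 0.05. The median log2 change over 35 members was 0.10, beside 0.01 over all genes. Leaving out 1 library at a time moved the median of the members tested between -0.04 and 0.31. DESeq2 over all 14 libraries called 5.44% of genes and 0 members. A fit with a block for replicate number called 1 member, Stat2, and 2329 genes. The labels do not say that these numbers mark pairs.

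Stat2 came nearest, with a KCl difference of -0.25 ± 0.07 (adjusted p = 0.101), and was lower after KCl in 6 of 7 cultures, all but SE culture 1. Irf1 and Ifit2 were lower after KCl in 7 of 7 cultures, as were 6.34% of genes, with differences of -0.14 ± 0.20 (adjusted p = 0.913) and -0.26 ± 0.13 (adjusted p = 0.492). Parp9 was higher in 7 of 7, as were 6.92% of genes, with 0.25 ± 0.24 (adjusted p = 0.809). Ifi44 had the lowest p for a difference in KCl response between SA and wild type, and Irf7 for KCl in SE, and neither was called. Of the pathway lists, 2 genes were called after KCl, the kinase Tbk1 (0.28 ± 0.06, adjusted p = 0.0304) and the phosphatase Ptpn1 (0.31 ± 0.05, adjusted p = 0.0083), both higher.

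**Figure D5:**
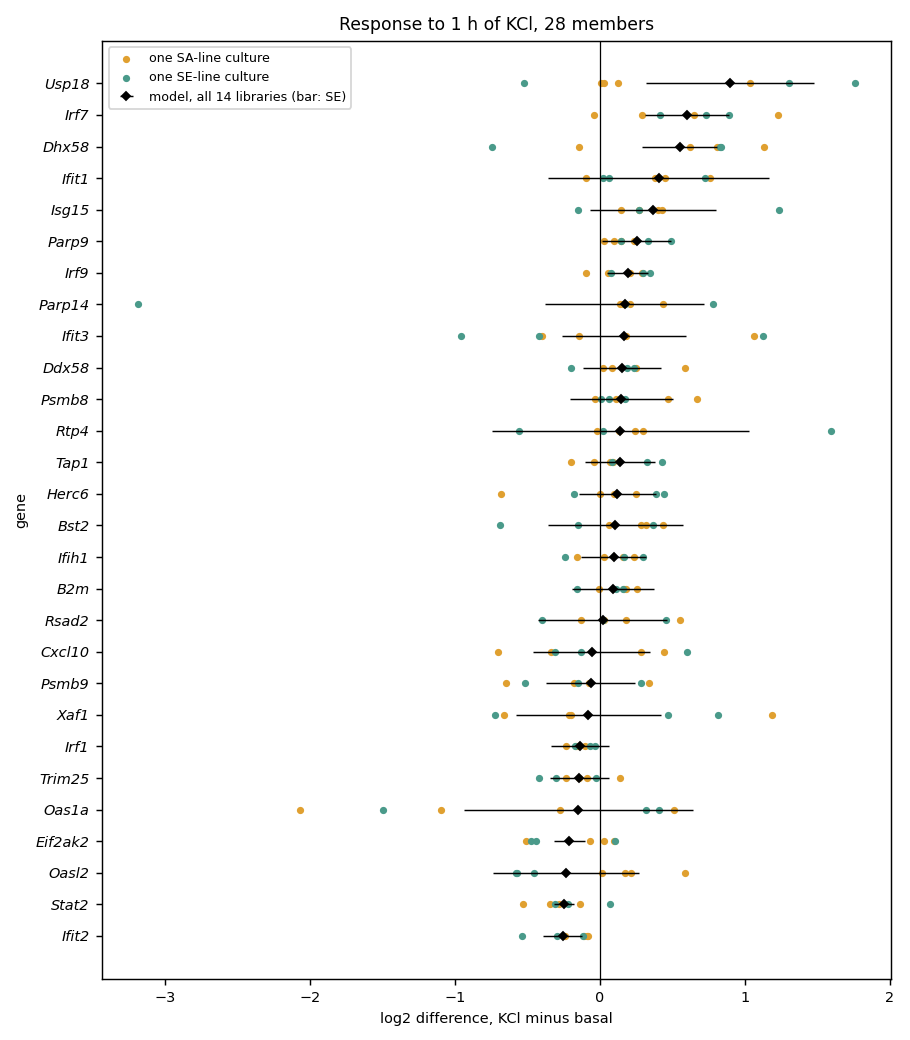
Log2 difference of KCl minus basal (x axis) for 28 members tested (y axis). Dots are single cultures of the SA line (orange) and SE line (green), and black diamonds are the model over 14 libraries with its standard error. Model values run from -0.26 for Ifit2 to 0.90 for Usp18, and the cultures of most members lie on both sides of 0.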

How the data were processed

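RNA-seq of 14 libraries was quantified by the authors with kallisto 0.43.1 on GRCm38 (mm10), per the submitters' processing notes. The deposited estimated counts per gene symbol need not be whole (65.5% of nonzero values were not), and the authors also deposited TPM. Sample groups came from the titles. Estimated counts were rounded and fitted with edgeR 4.0.16 (TMM scaling, filterByExpr, quasi-likelihood, 8 group means, 6 residual degrees of freedom), which left 17732 genes; p-values were adjusted by Benjamini-Hochberg over these. The test was checked on simulated counts of equal spread, without differences between cultures. That check does not cover the unequal spread between the libraries used here. CPM are counts over the library total times its TMM factor. Line contrasts give wild-type and mutant groups equal weight. Alternatives were DESeq2 1.42.0, limma 3.58.1 on log2(TPM + 0.5), other scaling and filters, blocks and left-out libraries.

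The members and gene lists were chosen with earlier results of these data known. All members are named. Every-library values are given for members called in any comparison, the 2 with the highest mean TPM of each role and the lowest p of each comparison, with Ifit1 added after its values were seen. Other lists are named by up to 4 called genes. Fitted fold changes of Mx2, Ifi44 and Ifit3b rest on 3 counts or fewer and are not printed. Coordinates are 1-based GRCm38 (GENCODE M21 or RefSeq).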

Additional observations from a re-analysis of the deposited data

How the results depend on the processing

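The line difference kept its direction under every alternative run, for each called member. Members called at basal ranged from 16 (a mean of at least 1 CPM, 19 members tested) to 28 (without both libraries of wild-type culture 2) around 24, and after KCl from 16 to 27 around 23. The same fits called 21.6% to 53.1% of genes at basal and 22.7% to 54.2% after KCl. Leaving out single libraries gave 19 to 26 and 20 to 26, and 0 to 0 in the other comparisons. Xaf1, Ifi44, Psmb9 and B2m lost their basal call most often, in 13, 10, 7 and 6 alternatives, and after KCl Psmb9, Ifi44, B2m and Usp18 lost it in 12, 11, 5 and 5. For SA against wild type after KCl, DESeq2 called 1 member, Eif2ak2, and 64 genes, with the cause not tested. Without both libraries of wild-type culture 2 the counts were 14 at basal and 15 after KCl, where fewer samples stood for wild type. Same-numbered libraries deviated together in wild type and SA of the SA line (r = 0.67 and 0.42 over genes) but not in SE (r = -0.05), so the numbers were not taken as pairs. With the replicate block, KCl over all libraries called 1 member, Stat2, and 2329 genes against 807, and no other comparison called a member. SA and wild type had negative correlations (-0.31 at basal, -0.28 after KCl), and a block with crossed numbers, added after seeing the data, called 2 members and 221 genes after KCl and 0 of either at basal. Comparisons that need an SE-line wild-type library could not be fitted without it, and the line comparisons had no block fit. Depth limits Oas2, Oas3, Oasl1, Mx1, Mx2 and Ifi44, which had at most 20 counts in any library. It also limits the line differences of members that were sparse in the SE line only. The highest SE-line library held 6 counts of Usp18, 5 of Rtp4, 5.03 of Ifit1, 4.01 of Rsad2 and 1.82 of Ifit3b.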
